A study of Mus musculus with 8 samples.

Results

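The cytosolic ribosomal protein genes encode the protein part of the ribosome that translates nuclear messenger RNA. Members were taken by symbol: every gene of the count table that GENCODE M21 classes as protein coding and that is named Rpl or Rps with a number and at most a letter a, x or y, together with Rplp0, Rplp1, Rplp2, Rpsa and Rps3a1. This gave 77 genes of 43309 in the table, 46 of the large (60S) subunit and 31 of the small (40S) subunit. All 77 passed the filter on low counts (16816 genes passed in all) and all 77 had counts in each of the 8 libraries, with 518 as the lowest count of any member in any library.

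Cytosolic ribosomes are assembled in the nucleolus from ribosomal RNA and about equal amounts of each ribosomal protein, and the genes for these proteins are spread over most chromosomes. Their transcripts are among the most abundant of growing cells and start with a short tract of pyrimidines (the 5′ terminal oligopyrimidine, or TOP, tract) through which mTOR signalling and LARP1 control their translation. Embryonic stem (ES) cells divide fast and devote much of their transcription to ribosome production.

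RNA was sequenced from mouse ES cells of strain J1 (129SV) grown in serum medium on gelatin without feeder cells, and cells were lysed directly in the buffer of the SMARTer Ultra Low kit, which copies polyadenylated RNA and amplifies the cDNA by PCR. The 4 groups of 2 libraries were Zbtb24 wild type (WT, 2lox/+) at 1000 cells, Zbtb24 knockout (KO, 1lox/1lox) at 1000 cells, WT at 100 cells and KO at 100 cells. Libraries of 1000 cells held about 10 ng of RNA and received 10 cycles of PCR, while those of 100 cells held about 1 ng and received 18 cycles, so cell number and cycle number cannot be told apart. The WT lines carry a floxed allele (2lox) beside the normal one, the KO lines carry the 1lox allele on both chromosomes, and both are clones. The labels do not say which clone gave which library, so the p-values measure the spread between labelled replicates. The paper describes more clones per genotype than the 2 libraries per group here, with 100 or 1000 cells taken from each clone. Libraries of 100 and of 1000 cells may therefore share clones, while the tests treated all libraries as independent. Results at the 2 cell numbers are thus not independent repeats.

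Gene totals ran from 9666985 to 16686525 counts per library, lowest in WT at 100 cells, replicate 1. Levels below are in the usual cpm unit, counts relative to a library size scaled by trimmed mean of M values (TMM) factors over the 8 libraries. Zbtb24 went against its label. With 1000 cells the WT libraries had 14.1 and 16.4 cpm and the KO libraries 40.8 and 37.7 (log2 ratio 1.37, edgeR adjusted p = 4.31e-11). With 100 cells WT had 19.5 and 20.3 cpm and KO 39.7 and 37.3 (log2 ratio 0.91, edgeR adjusted p = 0.0011). A count over all exons does not show whether a segment is missing, so KO and WT below mean the libraries labelled so. The 8 ES cell markers summed to between 5738 and 7246 cpm in every library. In KO at 100 cells, many single markers of other cell types were raised. Of the genes tested, 6 of 8 neuronal, 6 of 6 myelin, 5 of 6 astrocyte and 1 of 2 fibroblast markers were higher than in WT at 100 cells. Called lower were 1 neuronal marker and 0 of the myelin, astrocyte and fibroblast markers. Over all tested genes 17.6% were higher and 16.6% lower in KO at 100 cells. Myelin markers summed to 256 and 264 cpm there against 44.8 to 53.5 cpm in WT at 100 cells, astrocyte markers to 208 and 216 against 78.3 to 87.3, fibroblast markers to 2.46 and 2.72 against 0.395 to 0.678, and neuronal markers to 725 and 748 against 682 to 762. Cldn11 and Col3a1 were at 0 in every library outside that group. The part of these transcripts in the 100-cell results was not tested, and in bulk RNA fewer cells of a type and less RNA per cell cannot be told apart.

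Promoters of 57 of the 77 members were found by symbol in RefSeq (GRCm38.p6), as 250 bases before and 50 after the annotated start. Rpl7 was not among them. The stretches shown are those of the named genes with the largest changes in each direction between KO and WT at 1000 cells among the 57, with the longest run of C and T within 50 bases of the start in capitals and 30 bases in all.
Rpl31 (chr1:39367824-39367853, plus strand): ctcgccacaCCTCTTCCTCCTCgcctcccc
Rpl37a (chr1:72711274-72711303, plus strand): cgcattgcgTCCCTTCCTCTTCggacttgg
Rpl39 (chrX:37085173-37085202, minus strand): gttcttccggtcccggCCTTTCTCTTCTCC
Rps24 (chr14:24490710-24490739, plus strand): gagcggTCCTCTTTTCCTCCTCTCCagctc
Rpl7a (chr2:26910788-26910817, plus strand): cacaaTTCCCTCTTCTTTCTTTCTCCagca
Rplp0 (chr5:115559466-115559495, plus strand): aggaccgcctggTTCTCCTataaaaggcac
Rps9 (chr7:3704024-3704053, plus strand): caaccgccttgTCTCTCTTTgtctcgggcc
The first 4 genes were higher in KO and the last 3 lower. Runs of 13 to 19 bases stood in the first 4, and of 21, 7 and 9 bases in the last 3, so the length of the run did not sort the genes by direction. Counted from the start as 0, the runs covered -18 to -6 in Rpl31, 23 to 35 in Rpl37a, 36 to 49 in Rpl39 and -37 to -19 in Rps24. They covered -14 to 6 in Rpl7a, 11 to 17 in Rplp0 and -6 to 2 in Rps9. The capitals therefore do not mark TOP tracts as such. Of 2 entries of Rps24, that with the longest run is shown. A run of at least 8 pyrimidines within 50 bases of the start was present in 48 of 57 members (84.2%) and in 39.3% of the 27025 genes with a promoter. A run of at least 12 was present in 23 members (40.4%) against 10.6% of all genes. The letters CCGGAAG, searched on both strands of the 300 bases, occurred in 24 members (42.1%) and in 9.93% of all genes. They belong to the sequence bound by ETS factors such as GABPA. The letters CAGGACC, part of a sequence bound by ZBTB24, occurred on either strand in 4 members (7.02%), Rpl12, Rpl22, Rpl26 and Rps10, and in 7.76% of all genes. A match is a string of letters and does not show binding.

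The 77 genes together took between 7.24% and 9.20% of all gene counts. With 1000 cells their share was 7.59% and 7.68% in the WT libraries and 8.31% and 8.85% in the KO libraries. With 100 cells it was 7.24% and 9.20% in the WT libraries and 8.68% and 9.12% in the KO libraries. At 1000 cells both KO libraries lay above both WT libraries, with means of 8.58% ± 0.379 and 7.63% ± 0.0684 (SD, n = 2). At 100 cells the groups overlapped, with 8.90% ± 0.310 in KO and 8.22% ± 1.39 in WT (SD, n = 2). Without the 3 members on chromosome 1 the shares were 7.27% and 7.36% in WT and 7.77% and 8.26% in KO at 1000 cells. The share of ribosomal protein pseudogenes, taken as Rpl or Rps symbols that end in -ps or -ps and a number, was from 0.107% to 0.125%. Genes under other symbols that share sequence with members were not in this sum.

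**Figure D1:**
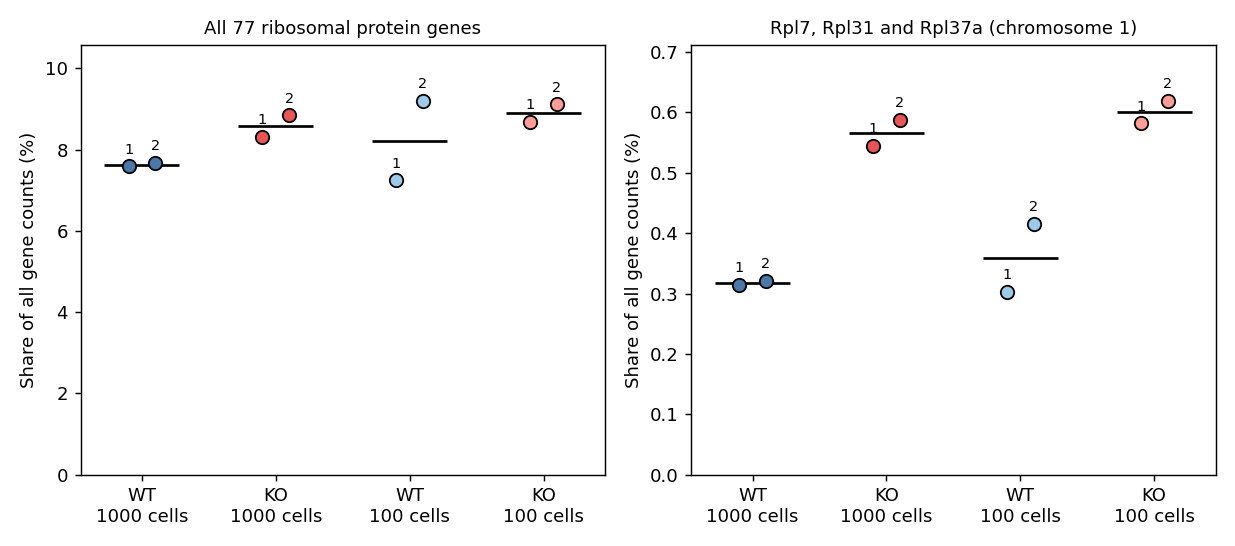
Share of all gene counts (%) taken by the 77 ribosomal protein genes (left) and by Rpl7, Rpl31 and Rpl37a (right) in each library; points are libraries with their replicate number and lines are group means. KO lies above WT at 1000 cells in both panels, while at 100 cells the 2 WT libraries of the left panel, 7.24% and 9.20%, enclose both KO libraries.

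The balance between subunits was given by the ratio of summed counts. The 60S members had 1.42 times the counts of the 40S members in both KO libraries at 100 cells, against 1.31 to 1.36 times in the other 6 libraries.

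Levels of single members were compared per kilobase of the principal transcript, as the mean over 8 libraries. The median was 1056 cpm per kilobase and the range 106 to 3745. Rpl41, the smallest protein of the ribosome, was highest at 3745 cpm per kilobase. Rps18, of the 40S head, had 3470 and Rps14, of the 40S platform, had 2643 cpm per kilobase. The lowest were Rps15a at 106, Rpl24 at 108, Rpl23a at 126, Rpl22 at 173 and Rpl18 at 191 cpm per kilobase. The part of the annotation and of the counting rules in these low values was not tested. Rps15a had 549 cpm in all, divided by a principal transcript of 5179 bases, and Rpl18 had 571 cpm over 2989 bases. Rpl24 had 73.0 cpm and Rpl23a 70.8 cpm before division, and 47.0% and 62.3% of their exon bases were shared with another gene of the later annotation used here (Gm28037 and Tlcd1). Rpl22 had no such overlap. Fragments that fit several places were discarded as well, and a median of 51.7% of the 50-base windows of a member occurred in transcripts of another gene, from 0% to 98.7%, the latter in Rps27. Across the 77 genes the level per kilobase showed little relation to that percentage (Spearman rho 0.04, genes of the same libraries).

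At 1000 cells, most ribosomal protein genes were higher in KO than in WT. The edgeR quasi-likelihood test called 58 of 77 members higher and 3 lower at an adjusted p of at most 0.05, against 20.9% of all 16816 genes higher and 20.6% lower. The median log2 ratio of the members was 0.27 (1.21-fold), against -0.00 over all genes. Among the 2868 genes at least as abundant as the lowest member, 1048 were called higher and 807 lower, with a median of 0.04. The libraries did not overlap in 68 of 77 members, with KO above in 64 and below in 4, while over all genes KO lay wholly above in 34.6% and wholly below in 34.7%. Both subunits took part, with 33 of 46 members of the 60S and 25 of 31 of the 40S subunit higher. At this cell number the summed myelin markers were 48.9 to 51.9 cpm in KO and 42.9 to 44.3 in WT, astrocyte markers 137 to 153 and 73.9 to 88.9, neuronal markers 574 to 586 and 727 to 755, and fibroblast markers 0.484 to 0.776 and 0.736 to 1.10. Of the markers tested, 3 of 8 neuronal, 1 of 6 myelin, 1 of 6 astrocyte and 0 of 2 fibroblast genes were called higher. Called lower were 2 neuronal genes and 0 of the other 3 lists. The median log2 ratio of the astrocyte markers was 0.01. The part of these markers was not tested. The number called higher fell to 27 when all 8 libraries shared 1 estimate of the spread, where 15.3% of all genes were called higher, and to 13 when a log2 ratio above 0.5 was also required, where 11.96% were.

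The 3 members with the largest log2 ratio were the 3 on chromosome 1. Rpl7 (chr1:16101295-16104662), a 60S protein, had 1868 and 1846 cpm in WT and 3416 and 3699 cpm in KO at 1000 cells, a log2 ratio of 0.94 ± 0.0516 (SE, edgeR adjusted p = 9.22e-15) or 1.92-fold. Rpl31 (chr1:39367842-39371911), which lies at the mouth of the exit tunnel, had 472 and 502 cpm in WT and 870 and 972 in KO (log2 ratio 0.92 ± 0.0599, edgeR adjusted p = 3.73e-13). Rpl37a (chr1:72711290-72713813), a zinc-binding 60S protein, had 699 and 741 cpm in WT and 1226 and 1391 in KO (log2 ratio 0.86 ± 0.0593, edgeR adjusted p = 1.28e-12). In each of these genes both KO libraries stood far above both WT libraries. The rest of chromosome 1 moved too: of 497 other genes with at least 10 cpm there, 391 were called higher and 22 lower, with a median log2 ratio of 0.55. Of the exon bases of Rpl31, 25.3% overlap Tbc1d8 on the opposite strand, and the counting ignored strand. All 3 kept their call under each of the 15 alternative settings tried for this comparison. Off chromosome 1, 55 of 74 members were higher and the median log2 ratio was 0.26.

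**Figure D2:**
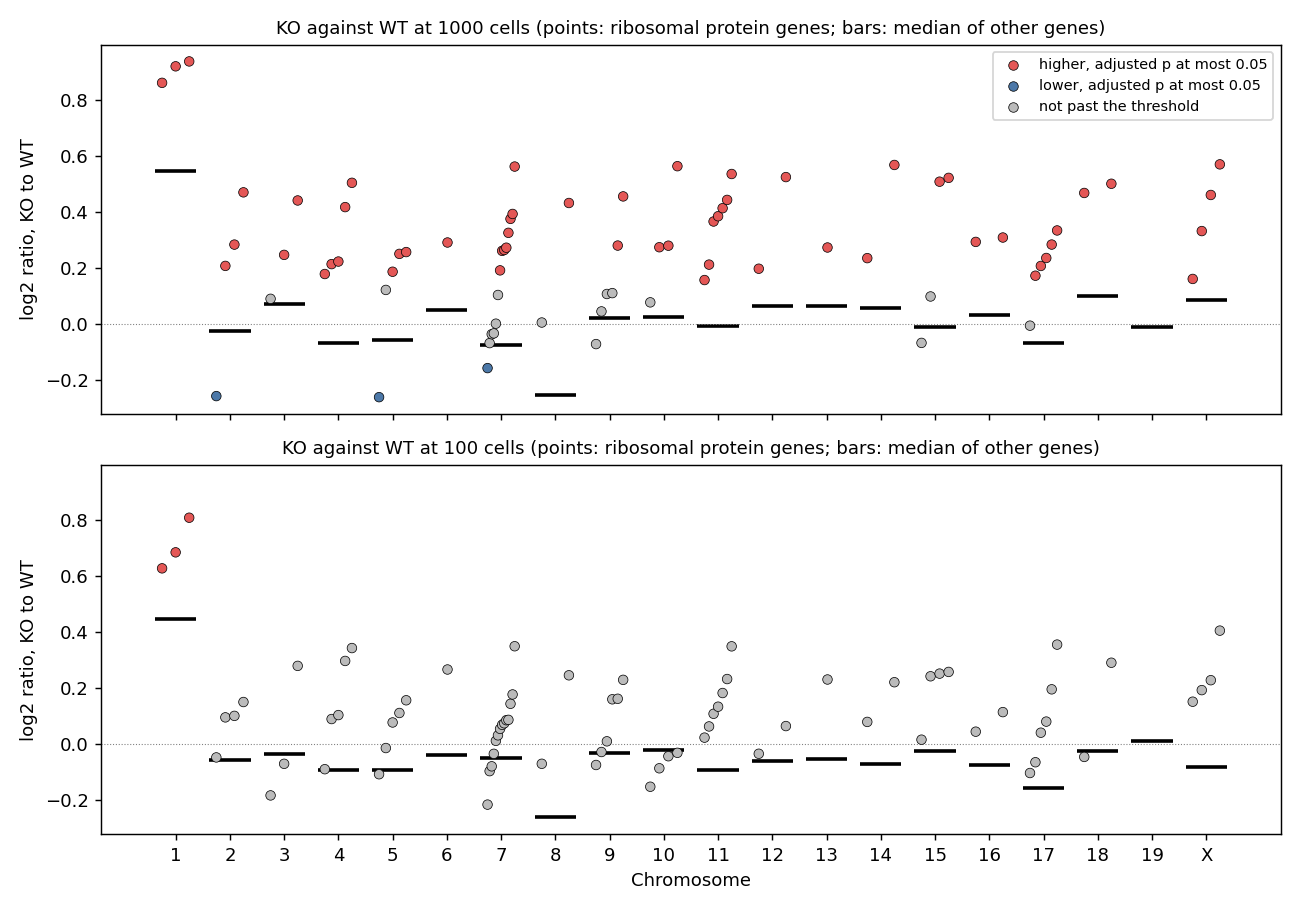
Log2 ratio of KO to WT at 1000 cells (top) and 100 cells (bottom) for each ribosomal protein gene, by chromosome; points are genes coloured by the edgeR call, and black bars are the median of the other genes of at least 10 cpm on that chromosome. The 3 genes of chromosome 1 lie highest in both panels, where the bar of that chromosome (0.55 and 0.45) is also the highest.

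Rpl39 (chrX:37082520-37085402), a short protein that lines the exit tunnel, had 287 and 321 cpm in WT and 419 and 482 in KO at 1000 cells, a log2 ratio of 0.57 ± 0.0672 (edgeR adjusted p = 5.23e-08). Rps24, a 40S protein mutated in Diamond-Blackfan anaemia (DBA, an inherited failure of red cell production), had 504 and 518 cpm in WT and 712 and 803 in KO (log2 ratio 0.57 ± 0.0596, edgeR adjusted p = 6.46e-09). Neither overlapped between groups. The other members of chromosome X were also higher, Rpl36a with a log2 ratio of 0.46, Rps4x with 0.33 and Rpl10, which joins the 60S subunit last, with 0.16 (edgeR adjusted p = 2.47e-07, 9.12e-06 and 0.0224). Rpl10 lost its call in 7 of 15 alternatives. Rpl36a had 411 and 428 cpm in WT and 549.9 and 604 in KO, and Rps4x had 1067 and 1061 cpm in WT and 1292 and 1387 in KO. At 100 cells all 4 genes of chromosome X had a log2 ratio above 0, with a median of 0.21, and 0 passed the threshold (1 with an unadjusted p below 0.05).

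The members lower in KO at 1000 cells were Rplp0, Rpl7a and Rps9. Rplp0, the base of the P stalk that recruits elongation factors, had 2704 and 2656 cpm in WT and 2215 and 2260 in KO (log2 ratio -0.26 ± 0.0494, edgeR adjusted p = 8.38e-05). Rpl7a, a 60S protein, had 893 and 883 cpm in WT and 724 and 762 in KO (log2 ratio -0.26 ± 0.0544, edgeR adjusted p = 0.000312). Rps9, a 40S protein near the messenger RNA entry, had 1324 and 1326 cpm in WT and 1155 and 1222 in KO (log2 ratio -0.16 ± 0.0527, edgeR adjusted p = 0.0173). The 2 KO libraries lay below both WT libraries in all 3 genes. Rps9 lost its call in 7 of 15 alternatives, among them the offsets for GC content and length (adjusted p = 0.712), and Rplp0 lost its call in 3 of 15, again with the offsets (0.0551). Rpl7a missed it with 1 fit of all 8 libraries. Of the other stalk proteins, Rplp1 was higher (log2 ratio 0.28, edgeR adjusted p = 0.000214), and Rplp2 was at -0.04 (0.664). Rpsa, which is also known as a laminin receptor, was at -0.07 (0.297).

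**Figure D3:**
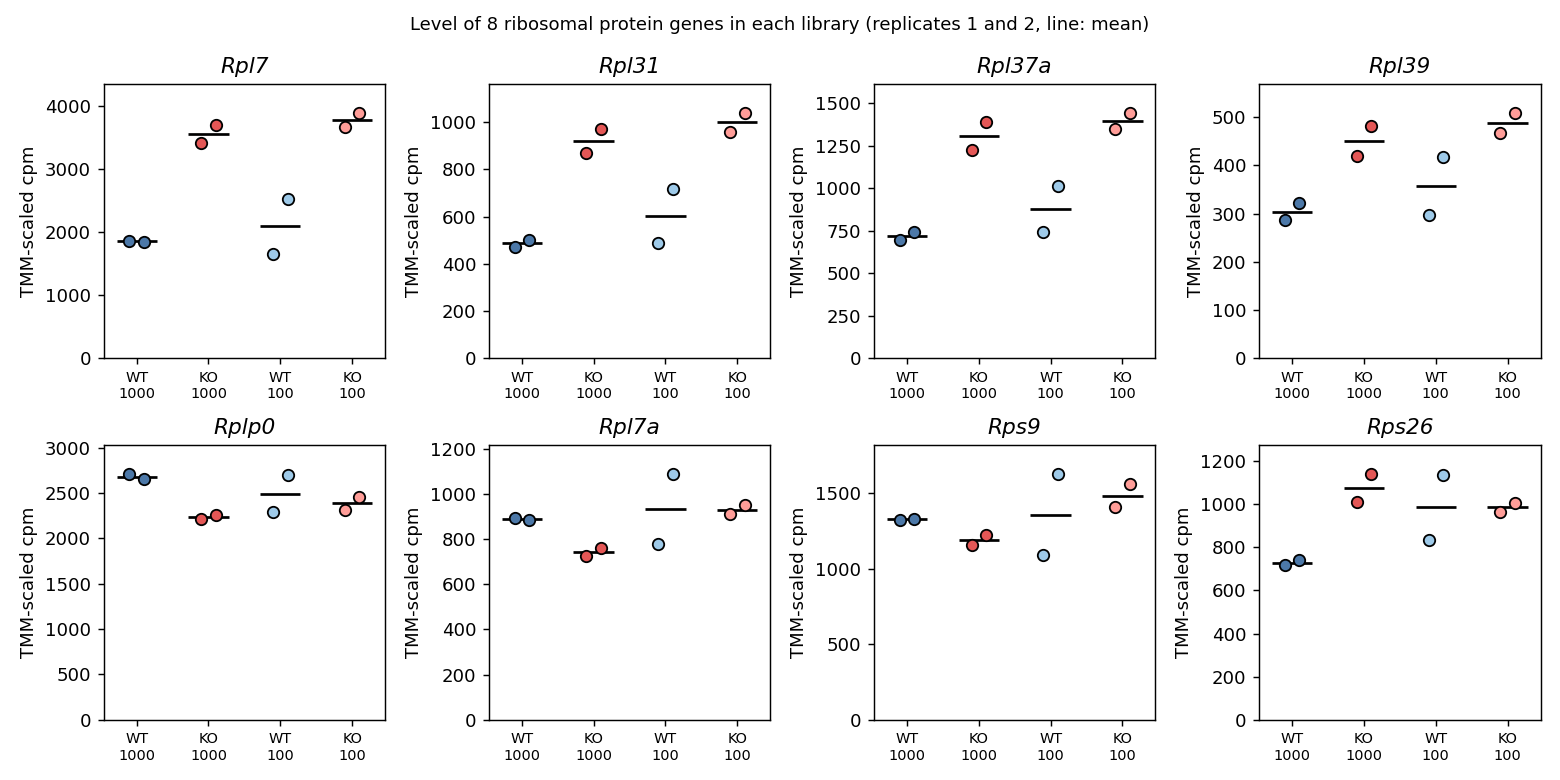
TMM-scaled cpm of 8 ribosomal protein genes in each library, with replicates 1 and 2 side by side and lines at the group means. Rpl7, Rpl31 and Rpl37a are higher in KO at both cell numbers, Rplp0, Rpl7a and Rps9 are lower in KO at 1000 cells, and the 2 WT libraries at 100 cells are far apart in most panels.

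Rpl5 and Rpl11 bind MDM2 together with the 5S RNA and so link ribosome assembly to p53. Both were higher in KO at 1000 cells by a small amount, Rpl5 by a log2 ratio of 0.19 ± 0.0529 and Rpl11 by 0.18 ± 0.0590 (edgeR adjusted p = 0.00502 and 0.0152). Rpl5 had 1481 and 1463 cpm in WT and 1612 and 1739.9 in KO, and Rpl11 had 508 and 503 in WT and 542 and 602 in KO, so neither overlapped. Rpl5 lost its call in 5 and Rpl11 in 6 of 15 alternatives. Of other genes mutated in DBA, these 6 were higher: Rps26 by 0.56, Rps24 by 0.57, Rps19 by 0.38, Rpl35a by 0.29, Rps10 by 0.24 and Rps7 by 0.20 on the log2 scale. Rpl35a had 432 and 443 cpm in WT and 506 and 567 in KO. Rps19, a protein of the 40S head, had 1507 and 1511 cpm in WT and 1853 and 2062 in KO. Its log2 ratio of 0.38 ± 0.0544 (edgeR adjusted p = 1.76e-06) was larger than the spread between replicates. The largest adjusted p of the 6 was that of Rps7, 0.0101.

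Base composition varied with the size of the difference. Across the 77 members the log2 ratio at 1000 cells fell with the GC content of the transcript (Spearman rho -0.34, genes measured in the same libraries). The 25 members of lowest GC content (41.26% to 49.24%) had a median log2 ratio of 0.39 with 22 called higher and 0 lower, and the 25 of highest GC content (54.05% to 60.84%) had 0.21 with 18 higher and 1 lower. At 100 cells rho was -0.48. Once the dependence of each library on transcript GC content and length had been fitted and taken out, 69 members were called higher and 1 lower at 1000 cells (26.4% and 16.8% of all genes), and the median rose to 0.36 against 0.08 over all genes. At 100 cells the median became 0.17 against -0.06 over all genes.

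At 100 cells, the KO and WT libraries overlapped for most members. The test called 3 members higher and 0 lower, against 17.6% of all genes higher and 16.6% lower, and 5 of 77 had an unadjusted p below 0.05. DESeq2 called 4 higher and 0 lower. The median log2 ratio of the members was 0.09, against -0.00 over all genes, and libraries did not overlap in 14 of 77 members against 70.1% of all genes. The 3 called were again Rpl7, Rpl31 and Rpl37a. Rpl7 had 1658 and 2525 cpm in WT and 3660 and 3889 in KO at 100 cells (log2 ratio 0.81 ± 0.177, edgeR adjusted p = 0.0077). Rpl31 had 488 and 718 cpm in WT and 959 and 1039 in KO (log2 ratio 0.69 ± 0.164, edgeR adjusted p = 0.0112). Rpl37a had 742 and 1012 cpm in WT and 1350 and 1443 in KO (log2 ratio 0.63 ± 0.146, edgeR adjusted p = 0.00999). Both KO libraries stood above both WT libraries in each. Of the 497 other genes of chromosome 1, 276 were called higher and 16 lower at 100 cells, with a median of 0.45. Without KO replicate 1, 2 members were called by edgeR, Rpl37a being lost, and without KO replicate 2, 0 of 77. Of those off chromosome 1, Rpl39 came nearest, with 297 and 417 cpm in WT and 468 and 508 in KO (log2 ratio 0.41 ± 0.150, edgeR adjusted p = 0.0612). Rplp0 was at -0.11, Rpl7a at -0.05 and Rps9 at 0.09 on the log2 scale, with adjusted p of 0.533, 0.835 and 0.72. Rpl5 was at 0.11, Rpl11 at -0.09 and Rps19 at -0.08, with adjusted p of 0.548, 0.698 and 0.685.

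The WT pair of the 100-cell comparison was far apart. Here replicate 2 was higher than replicate 1 for 77 of 77 members, with a median log2 difference of 0.49 and a range of 0.18 to 0.80. The same difference had a median of 0.03 in the 1000-cell WT pair, 0.14 in the 1000-cell KO pair and 0.08 in the 100-cell KO pair. In these pairs replicate 2 was higher for 59, 75 and 76 of 77 members. The matching counts over the 8365 genes of at least 10 cpm were 3954, 4281 and 4049. A shift of most members in 1 direction was thus not particular to the WT pair of 100 cells, where it was largest. Over the 8365 genes the difference had a median of 0.03 in the WT pair of 100 cells, below the lowest value of any member there. Replicate 1 was the shallowest library, with 9666985 counts against 13602460 in replicate 2. Without WT replicate 1, 5 members were called higher and 33 lower in KO at 100 cells, and 27.0% of all genes were called higher and 26.8% lower. Without WT replicate 2, 66 members were called higher and 0 lower, and 29.8% of all genes were called higher and 27.4% lower. For most members off chromosome 1 the direction at 100 cells therefore rested on the choice of WT library.

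**Figure D4:**
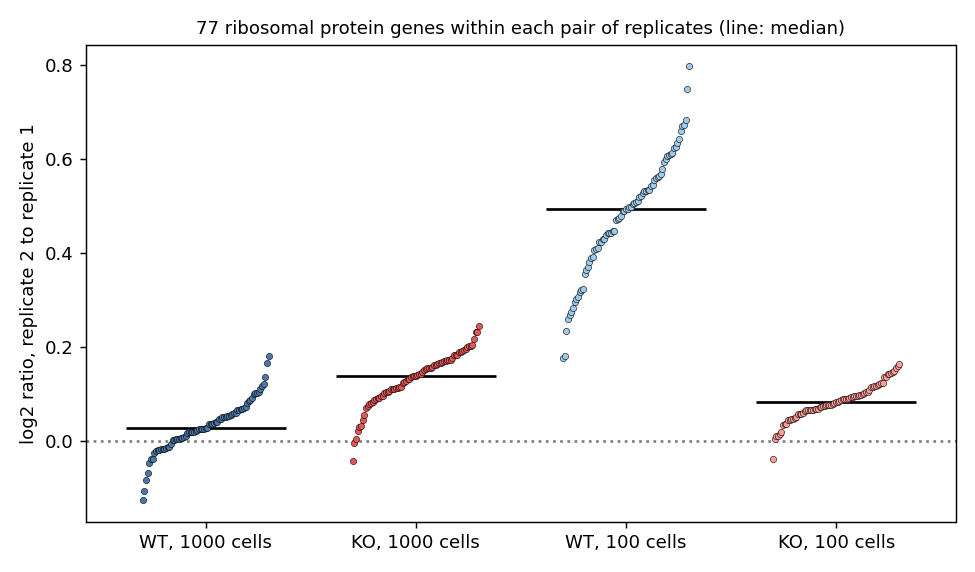
Log2 ratio of replicate 2 to replicate 1 within each group for the 77 ribosomal protein genes, sorted within a group; lines are medians. All 77 points of WT at 100 cells lie above 0, with a median of 0.49. The medians of WT at 1000, KO at 1000 and KO at 100 cells are 0.03, 0.14 and 0.08. In these groups 59, 75 and 76 of the 77 points lie above 0.

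Between 100 and 1000 cells in WT, 0 of 77 members were called by edgeR or DESeq2, and 0.827% of all genes were called by edgeR in either direction. An unadjusted p below 0.05 was found for 10 members, and the median log2 ratio was 0.17 against -0.00 over all genes. Without replicate 1 of WT at 100 cells, 70 members were called higher at 100 cells (6.99% of all genes), and without replicate 2, 4 higher and 19 lower (8.31% and 7.22% of all genes). The largest value was that of Rps26, a protein at the messenger RNA exit of the 40S subunit, with 716 and 739 cpm at 1000 cells and 836 and 1135 at 100 cells (log2 ratio 0.42 ± 0.132, edgeR adjusted p = 0.167).

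In KO, 24 members were higher and 9 lower at 100 than at 1000 cells, against 27.3% of all genes higher and 24.8% lower. The share called higher was therefore near that of all genes and the share called lower was below it. The median log2 ratio was 0.08 and no member passed 0.5 in size. Between replicates of KO the members differed by a median of 0.14 at 1000 cells and 0.08 at 100 cells. The median change with cell number was therefore no larger than the shift between replicates. With 1 library left out this median ranged from 0.01 to 0.15. Of the 60S members 17 were higher and 3 lower, and of the 40S members 7 were higher and 6 lower. Rpl13 rose most, from 1557 and 1642 cpm to 1965 and 2169 (log2 ratio 0.37 ± 0.0495, edgeR adjusted p = 1.07e-07). It was followed by Rpl23a (0.36), a protein near the exit tunnel that binds the signal recognition particle, Rpl7a (0.33), Rps9 (0.32) and Rps10 (0.30). Rps10 turned to -0.10 with the offsets for GC content and length. Rps14, a protein of the 40S platform, fell most, from 2377 and 2587 cpm to 1996 and 2065 (log2 ratio -0.29 ± 0.0475, edgeR adjusted p = 5.33e-06). Rps19 (-0.24), Rps18 (-0.17), Rps27 (-0.17) and Rplp1 (-0.14) also fell, and Rplp1 lost its call in 7 of 15 alternatives. Rpl7a and Rps9, lower in KO at 1000 cells, were therefore among the members that rose at 100 cells within KO, and the 2 results share the KO libraries of 1000 cells.

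**Figure D5:**
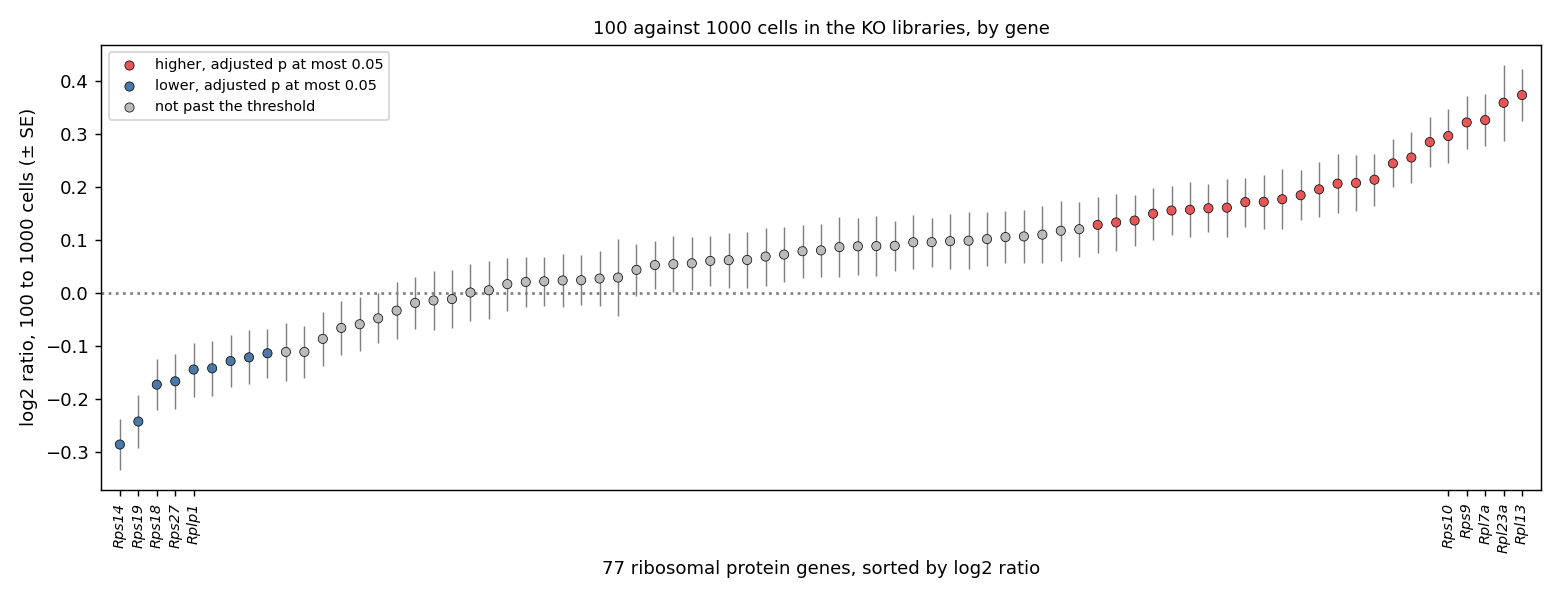
Log2 ratio of 100 to 1000 cells in the KO libraries for each of the 77 ribosomal protein genes, sorted by value, with bars of 1 SE, colours for the edgeR call and names for the 5 largest called changes in each direction. The values run from -0.29 for Rps14 to 0.37 for Rpl13, and 24 genes are called higher and 9 lower.

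The change with cell number was set against transcript length. In KO, of the 25 shortest members (345 to 732 bases), 1 was higher and 6 were lower at 100 cells, while of the 27 of middle length (733 to 1047 bases) 16 were higher and 2 lower, and of the 25 longest 7 were higher and 1 lower. Spearman's rho between length and log2 ratio over the 77 genes was 0.27 in KO and -0.35 in WT, the opposite sign. In the same comparison 7 of 8 neuronal, 6 of 6 myelin and 5 of 6 astrocyte markers tested were higher at 100 cells, and their part was not tested. With 1 estimate of the spread over 8 libraries 3 members were called, against 36.1% of all genes, and with offsets for GC content and length 36 members were called higher and 16 lower, against 22.1% and 29.1% of all genes.

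The interaction asked whether the difference between KO and WT depended on cell number. It was called for 4 members, all with a smaller KO to WT ratio at 100 cells, against 7.05% of all genes in that direction, and for 0 members in the other, against 9.28% of all genes, and 8 members had an unadjusted p below 0.05. The largest was Rps26 (-0.56 ± 0.167 on the log2 scale, edgeR adjusted p = 0.0334), followed by Rps14 (-0.50 ± 0.144, adjusted p = 0.0286), both 40S proteins. Rps26 had 716 and 739 cpm in WT and 1012 and 1138 in KO at 1000 cells, and 836 and 1135 in WT and 966 and 1006 in KO at 100 cells. The KO libraries of 1000 cells stood above WT, while those of 100 cells lay between the 2 WT libraries. The number called fell to 0 when either WT replicate of 1000 cells, KO replicate 2 of 1000 cells or either KO replicate of 100 cells was left out. Without WT replicate 1 of 100 cells 61 members were called lower (14.2% of all genes), and without WT replicate 2 of 100 cells 29 were called higher and 7 lower (18.2% and 15.4% of all genes). Beside this term stand the markers of KO at 100 cells given above, of which 7 of 8 neuronal, 6 of 6 myelin and 3 of 6 astrocyte genes had a higher KO to WT ratio at 100 cells, and their part was not tested. For Rpl7, Rpl31 and Rpl37a the interaction was -0.09, -0.19 and -0.19 (adjusted p of 0.804, 0.523 and 0.476).

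Genes that act with the ribosomal proteins were counted by list. Of all tested genes, 20.9% were called higher and 20.6% lower in KO at 1000 cells, and 17.6% and 16.6% at 100 cells. From 1000 to 100 cells in KO 27.3% were higher and 24.8% lower, and for the interaction 9.28% and 7.05%. Of 20 genes of nucleolar ribosome assembly and RNA polymerase I, 2 were higher and 13 lower in KO at 1000 cells, with a median log2 ratio of -0.28. Ubtf, an activator of RNA polymerase I, was at -0.91 (edgeR adjusted p = 3.41e-11), and the largest riser, Wdr12 on chromosome 1, was at 0.39. At 100 cells 3 were higher and 4 lower, led by Ncl (0.79), also on chromosome 1, and Nop10 (-0.75). From 1000 to 100 cells in KO 15 of the 20 rose, led by Gar1 (1.43), and 3 fell, and the interaction was called higher for 9 and lower for 1. Of 10 regulators of ribosomal protein genes, 1 was higher (Mtor, 0.31) and 5 lower at 1000 cells. Myc, a transcription factor that raises ribosome production, was lowest with -1.53 (adjusted p = 1.22e-12) and was at -1.76 at 100 cells (5.01e-05), where 1 of the list was higher (Eif4ebp2, 1.21) and 4 lower.

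Of 18 translation factors and other genes with TOP transcripts, 8 were higher and 4 lower in KO at 1000 cells, with a median of 0.12, from Hnrnpa1 at -0.61 to Eef1b2 at 0.47. At 100 cells 2 were higher, Eef2 (0.56) and Eif4b (0.32), and 0 lower, with 3 of 18 at an unadjusted p below 0.05. Of all tested genes, 20.9% were higher and 20.6% lower at 1000 cells, and 17.6% and 16.6% at 100 cells. Of the 76 mitochondrial ribosomal proteins tested, which build the separate ribosome of mitochondria, 18 were higher and 30 lower at 1000 cells (median -0.07). At 100 cells 3 were higher and 23 lower (median -0.23). The largest riser at both cell numbers was Mrpl30, on chromosome 1, with 0.96 and 0.48. Of 6 transcripts that host small nucleolar RNAs, 2 were higher at both cell numbers, Gas5 (1.56 and 0.85) and Snhg6 (1.09 and 0.92), both on chromosome 1. Of the others, 1 was lower at 1000 cells and 2 at 100 cells, with Epb41l4aos at -0.48 and -0.98. Eef1b2 also lies on chromosome 1.

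Among ribosomal proteins that carry other names, Fau had a log2 ratio of 0.11 at 1000 cells and -0.15 at 100 cells, and Rack1 of 0.01 and -0.22, without passing the threshold. Of 8 paralogs with a restricted or duplicated role, 2 were higher and 3 lower at 1000 cells. Rpl10l and Rpl39l, known from the testis, were lower at 1000 cells (-0.90 and -0.88) and at 100 cells (-1.20 and -1.21), while Rpl22l1 was higher at 1000 cells (0.39). At 100 cells 0 of the 8 were higher and 2 lower. Of 92 ribosomal protein pseudogenes tested, all with symbols in -ps, 20 were higher and 2 lower at 1000 cells (median 0.25). At 100 cells 4 of the 92 were higher and 2 lower. Of all tested genes, 20.9% were higher and 20.6% lower at 1000 cells, and 17.6% and 16.6% at 100 cells. Reads of a member and of its pseudogene share sequence, so these counts are not independent of the members.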

How the data were processed

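The authors counted sequenced fragments per gene and deposited raw counts for 8 libraries in 1 table. Per the labels and the study's methods, reads (CASAVA 1.8.2) that matched ribosomal RNA were removed with Bowtie2 2.1.0, the rest was mapped to mm10 with TopHat2 2.0.10, and HTSeq 0.6.1 counted fragments over GENCODE M4 genes in union mode, without strand and without fragments that fit several genes or places. Removal of PCR duplicates was not stated in the sources used here. Fragments from sequence that a member shares with a pseudogene can therefore be lost.

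Groups came from the genotype and cell number labels. Positions, classes, lengths and GC content came from GENCODE M21 (42425 of 43309 identifiers matched). After removal of genes that reached 10 counts in no library, the rest were tested with the quasi-likelihood test of edgeR 4.0.16 (R 4.3.3), TMM scaling and Benjamini-Hochberg adjustment over 16816 genes at 0.05, two-sided. KO against WT and 100 against 1000 cells used the 4 libraries compared, and the interaction used all 8. Shares and medians were given without a test. The scripts recovered known changes in simulated counts. Those changes were larger than that of any member in the comparisons as reported, and the simulated spread was the same in every group. Recovery of smaller changes, or with unequal spread between groups, was not tested. Alternatives were DESeq2 1.42.0, other scalings and filters, a replicate block, offsets for GC content and length (mgcv 1.9.3), 1 fit of all libraries, a fold threshold and each library left out.

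Named genes were the 5 largest changes in each direction per comparison among called members without overlap, the 3 largest of the interaction, those called at both cell numbers, the members of chromosome X, Rpl5, Rpl11 and DBA genes, Rplp0, Rplp1, Rplp2 and Rpsa, and the 5 highest and lowest per kilobase. Of other lists the largest value in each direction was named, and further genes were named after their values were seen. Results for a few single genes that this rule names are not reported here. The members and lists were chosen with earlier results of these data known.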

Additional observations from a re-analysis of the deposited data

Results flagged for a closer look

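The interaction term of edgeR was called for Rps26 (-0.56 on the log2 scale, adjusted p = 0.0334) and Rps14 (-0.50, adjusted p = 0.0286). Each had a smaller KO to WT ratio at 100 than at 1000 cells. In this direction 4 of 77 members were called, against 7.05% of all genes. Rps26 lost its call in 8 and Rps14 in 6 of 18 alternatives. Rps14 had 1723 and 1784 cpm in WT and 2377 and 2587 in KO at 1000 cells, and 1818 and 2247 in WT and 1996 and 2065 in KO at 100 cells. Groups of 2 libraries were too small for a test of single outlying libraries.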

How the results depend on the processing

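At 1000 cells, 61 members were called in the comparison as reported, 13 with a log2 ratio above 0.5 in size and 28 with 1 fit of 8 libraries. The median log2 ratio of 0.27 became 0.19 with library size alone (49 higher, 6 lower, median of all genes -0.09) and 0.36 with GC content and length offsets. With 1 library left out the calls ranged from 50 to 65 and the median from 0.19 to 0.35. At 100 cells, the 3 calls became 9 with a replicate block, 14 with the block and the offsets, and 7 with 1 fit. The median of 0.09 became 0.17 with the offsets (all genes -0.06) and 0.19 with the block and the offsets (all genes -0.05). With 1 library left out they ranged from 0 to 66 and the median from -0.10 to 0.36, the extremes of the median being those without either WT library. Without WT replicate 1, the sign turned for 41 of 77 members. Named genes whose sign turned and that passed the threshold there were Rpl35a (-0.20) and Rps9 (-0.16). Without WT replicate 2, the sign turned for 20 members, with the named and called ones being Rpl11 (0.21), Rpl7a (0.22), Rplp1 (0.13), Rps26 (0.20), Rps27 (0.16) and Rps7 (0.34). The other ends of these ranges were 0.35 (Rpl35a), 0.41 (Rps9), -0.32 (Rpl11), -0.26 (Rpl7a), -0.24 (Rplp1), -0.24 (Rps26), -0.26 (Rps27) and -0.32 (Rps7).

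Between 100 and 1000 cells in WT, the 0 calls became 1 with no filter beyond 1 count and 1 with 1 fit, and ranged from 0 to 70 with a library left out (median -0.06 to 0.39). Single values ranged from -0.23 to 0.32 for Rpl13, -0.17 to 0.25 for Rpl7a and -0.27 to 0.26 for Rps9, lowest without WT replicate 2 of 100 cells. In KO the 33 calls became 52 with the offsets, 62 with block and offsets, 0 with a log2 ratio above 0.5, 3 with 1 fit, and 14 to 48 with a library left out. With the offsets the sign turned for 16 members, of which the named ones past the threshold in either fit were Rpl18 (-0.059), Rpl37a (-0.18), Rps10 (-0.10) and Rps26 (0.11), and with block and offsets for 16, with the same 4 named (-0.056, -0.18, -0.10 and 0.11). The 4 calls of the interaction became 8 with no filter, 1 with 10 counts in every library and 2 with a log2 ratio above 0.5, and ranged from 0 to 61 with a library left out (median -0.36 to 0.14). Single values ranged from -0.35 to 0.41 for Rpl23a and -0.36 to 0.25 for Rpl7, highest without WT replicate 2 of 100 cells. The cause was not tested in any of these.

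Same-numbered replicates were not stated to be paired: correlations of their deviations over 8365 genes were -0.12 (WT, 1000 and 100 cells), 0.15 (WT and KO, 1000 cells), 0.17 (WT and KO, 100 cells) and -0.04 (KO, both cell numbers). Over the members alone they were 0.28, 0.74, 0.36 and 0.16 in the same order. In WT the block gave 0 calls with numbers as labelled and 0 when crossed, an alternative chosen after seeing the data. Over single named genes, 1955 values of 2418 kept their sign and side of the threshold, 160 passed it newly and 136 no longer passed it with the sign kept, and 167 changed sign, 21 of them past the threshold in either fit. Where a group was left with 1 library, it was assumed to vary like the other. With 2 libraries a group, the precision rests on few degrees of freedom. The lowest count of any member in any library was 518, and the part of depth in these results was not tested. The labels do not tie libraries to clones.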
